A study of Homo sapiens with 6 samples.

Results

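The genes described here make cholesterol and fatty acids or set how strongly those pathways are transcribed. The list holds 29 human genes, taken with the probe sets that carry exactly 1 of their symbols, and 27 of the 29 were measured among 18417 genes in all. HSD17B7 appears only on a probe set shared with another gene, and FDFT1 was not analysed here. CYP51A1 had 2 probe sets and the brighter one was used. The list does not hold every enzyme of the pathway.

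Cells build cholesterol from acetyl-CoA through mevalonate, farnesyl diphosphate, squalene and lanosterol. When sterol in the endoplasmic reticulum runs low, the escort protein SCAP carries the membrane-bound transcription factors SREBP1 and SREBP2 (genes SREBF1 and SREBF2) to the Golgi, where proteases free the active factor. INSIG1 and INSIG2 hold SCAP back when sterol is plentiful. SREBP2 is best known for driving the cholesterol enzymes, and SREBP1 for driving fatty acid synthesis. Most of these promoters also bind NF-Y, which recognises CCAAT, and SP1, which recognises GC boxes.

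The study silenced STEAP1, a gene of the transmembrane metalloreductase family, in A673 and SK-N-MC, both established Ewing tumor lines. Each line gave 3 Affymetrix gene arrays: 1 of cells with a control siRNA, 1 with STEAP1 siRNA 2 and 1 with STEAP1 siRNA 3, each at 5 nM for 48 h. All cells grew in the same serum-containing medium and were taken at 80% confluency, per the labels' protocols. The A673 control carries the number 2 in its label and the SK-N-MC control no number, and the labels leave unsaid whether the control siRNA was the same in both lines. Every cell here received an siRNA, and no untreated cells were used. Each line is a single line, and the labels do not say whether its arrays came from separate cultures. The p-values therefore reflect no more than array-to-array spread here, which may be technical. Except in fits with a term per siRNA, siRNA 2 and siRNA 3 were taken as replicates, so this spread includes any difference between them. Values are log2 of the deposited intensity, and array values are always listed in the order control, siRNA 2, siRNA 3. Errors of differences are standard errors (SE) of a limma fit to all 18417 genes, and a gene is called when its Benjamini-Hochberg adjusted p is under 0.05. The number of arrays limits the precision.

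Over all genes, pairs of arrays within a line had correlations of 0.9862 to 0.993, and pairs between lines 0.9456 to 0.9489. STEAP1 stood at 7.15, 4.17 and 4.73 in SK-N-MC against 6.23, 4.53 and 4.59 in A673, so 12.7% to 32.1% of the control level was left. Of 8 Ewing tumor markers 7 were measured, CD99 at 9.40 to 10.25, NKX2-2 at 5.57 to 6.15 and FLI1 lowest at 3.78 to 4.04. The 9 markers of blood, epithelium, liver, endothelium and muscle lay between 1.01 and 3.76, the highest being DES. Values are for whole cultures, so fewer cells with a transcript and less of it per cell cannot be told apart.

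The promoters of the 4 members with the widest difference between the lines among those in the RefSeq promoter table are shown first. That of SREBF2 is added because it alone of the members in that table holds the exact sterol regulatory element. Each run is the 250 bases before the annotated start, 5′ to 3′ on the gene's strand (build GRCh38.p14). Capitals mark CCAAT on either strand (ATTGG on the opposite one) and, in SREBF2 only, the classical sterol regulatory element bound by SREBP. The positions are chr11:121292521-121292770, plus strand for SC5D, chr11:71448394-71448643, minus strand for DHCR7, chr4:165327419-165327668, plus strand for MSMO1, chr16:88663092-88663341, minus strand for MVD and chr22:41832855-41833104, plus strand for SREBF2.
SC5D: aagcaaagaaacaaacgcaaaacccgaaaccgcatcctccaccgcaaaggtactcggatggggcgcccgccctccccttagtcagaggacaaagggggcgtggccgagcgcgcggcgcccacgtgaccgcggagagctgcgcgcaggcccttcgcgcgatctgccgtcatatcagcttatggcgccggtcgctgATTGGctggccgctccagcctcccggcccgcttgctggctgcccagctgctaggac
DHCR7: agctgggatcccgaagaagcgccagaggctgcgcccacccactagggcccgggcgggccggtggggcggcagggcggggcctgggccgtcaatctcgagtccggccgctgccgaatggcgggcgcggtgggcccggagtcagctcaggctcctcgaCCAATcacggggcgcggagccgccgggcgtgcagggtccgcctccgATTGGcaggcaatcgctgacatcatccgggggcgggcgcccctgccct
MSMO1: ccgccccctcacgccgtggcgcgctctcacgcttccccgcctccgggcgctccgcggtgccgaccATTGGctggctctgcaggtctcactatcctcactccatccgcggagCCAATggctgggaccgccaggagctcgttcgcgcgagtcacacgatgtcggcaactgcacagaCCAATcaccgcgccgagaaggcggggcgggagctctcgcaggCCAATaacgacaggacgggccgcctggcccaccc
MVD: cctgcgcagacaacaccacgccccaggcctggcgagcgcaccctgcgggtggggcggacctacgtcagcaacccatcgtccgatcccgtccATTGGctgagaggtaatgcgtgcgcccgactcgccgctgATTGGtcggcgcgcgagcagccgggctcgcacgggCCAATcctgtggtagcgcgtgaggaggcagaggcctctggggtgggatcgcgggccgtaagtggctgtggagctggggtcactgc
SREBF2: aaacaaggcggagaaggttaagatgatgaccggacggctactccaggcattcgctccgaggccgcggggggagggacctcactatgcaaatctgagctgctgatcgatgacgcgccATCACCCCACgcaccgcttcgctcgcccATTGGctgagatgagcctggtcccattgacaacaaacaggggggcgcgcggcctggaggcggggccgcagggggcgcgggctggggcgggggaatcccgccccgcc

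Of the 27 members 24 have an entry in that table, all but ACAT2, SQLE and FASN. CCAAT on either strand, overlapping matches included, was present in 16 of the 24 (66.7%), beside 33% of all 27305 promoters of the same length. Among the members higher in A673 it was present in 13 of 17, and among the other members in 3 of 7. The SP1 motif GGGCGG, on either strand, was present in 22 of 24 (91.7%), beside 42.3% of all promoters. The exact letters of the classical sterol regulatory element, sought on both strands, were found in 1 member, SREBF2, 134 bases before the start, and in 0.0366% of all promoters. The looser TCACNCCAC, which overlaps that site, was again found in SREBF2 alone of the members and in 0.875% of all promoters. A match is a description of these letters in this window. The shares over all promoters include genes that were dim or not measured here, and no share over brighter genes was taken. MVK and NSDHL held the most CCAAT letters, 5 each, and in NSDHL 2 of them share bases.

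The first comparison asks how the lines themselves differ. Of the enzymes on the route to cholesterol, all measured members but PMVK and EBP were called higher in A673. ACLY, which supplies acetyl-CoA, is counted here with fatty acid synthesis and not on this route. Over the whole list 20 of the 27 members were called higher, 4 were called lower (GGPS1, SCAP, ACACA and ACLY) and 3 were not called (PMVK, EBP and SREBF2). The median difference of A673 minus SK-N-MC over the members was 1.03 on the log2 scale, beside -0.017 over all genes. Of the members 74.1% were called higher and 14.8% lower, where 13.5% of all genes were called higher and 11.4% lower. The members are brighter than most genes, with a median mean level of 6.19 beside 3.26 for all genes. Among the 7413 genes with a mean level of at least 4, which include 26 of the 27 members, 22.5% were called higher and 16.4% lower. At least 2-fold higher and called were 15 members, beside 4.72% of all genes and 7.65% of the brighter ones.

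In 21 members every A673 array lay above every SK-N-MC array, which holds for 19.4% of all genes, and in 5 every A673 array lay below, which holds for 18.5%. EBP alone overlapped. The difference was there in each pair of arrays with the same treatment name. The members' median was 0.91 between the control arrays, 1.16 between the siRNA 2 arrays and 0.93 between the siRNA 3 arrays. The pairs share no array, but whether the arrays of a line came from separate cultures is not stated. In each of these pairs 22 members were higher in A673 and 5 lower, where 45.7% to 51.5% of all genes were higher.

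**Figure D1:**
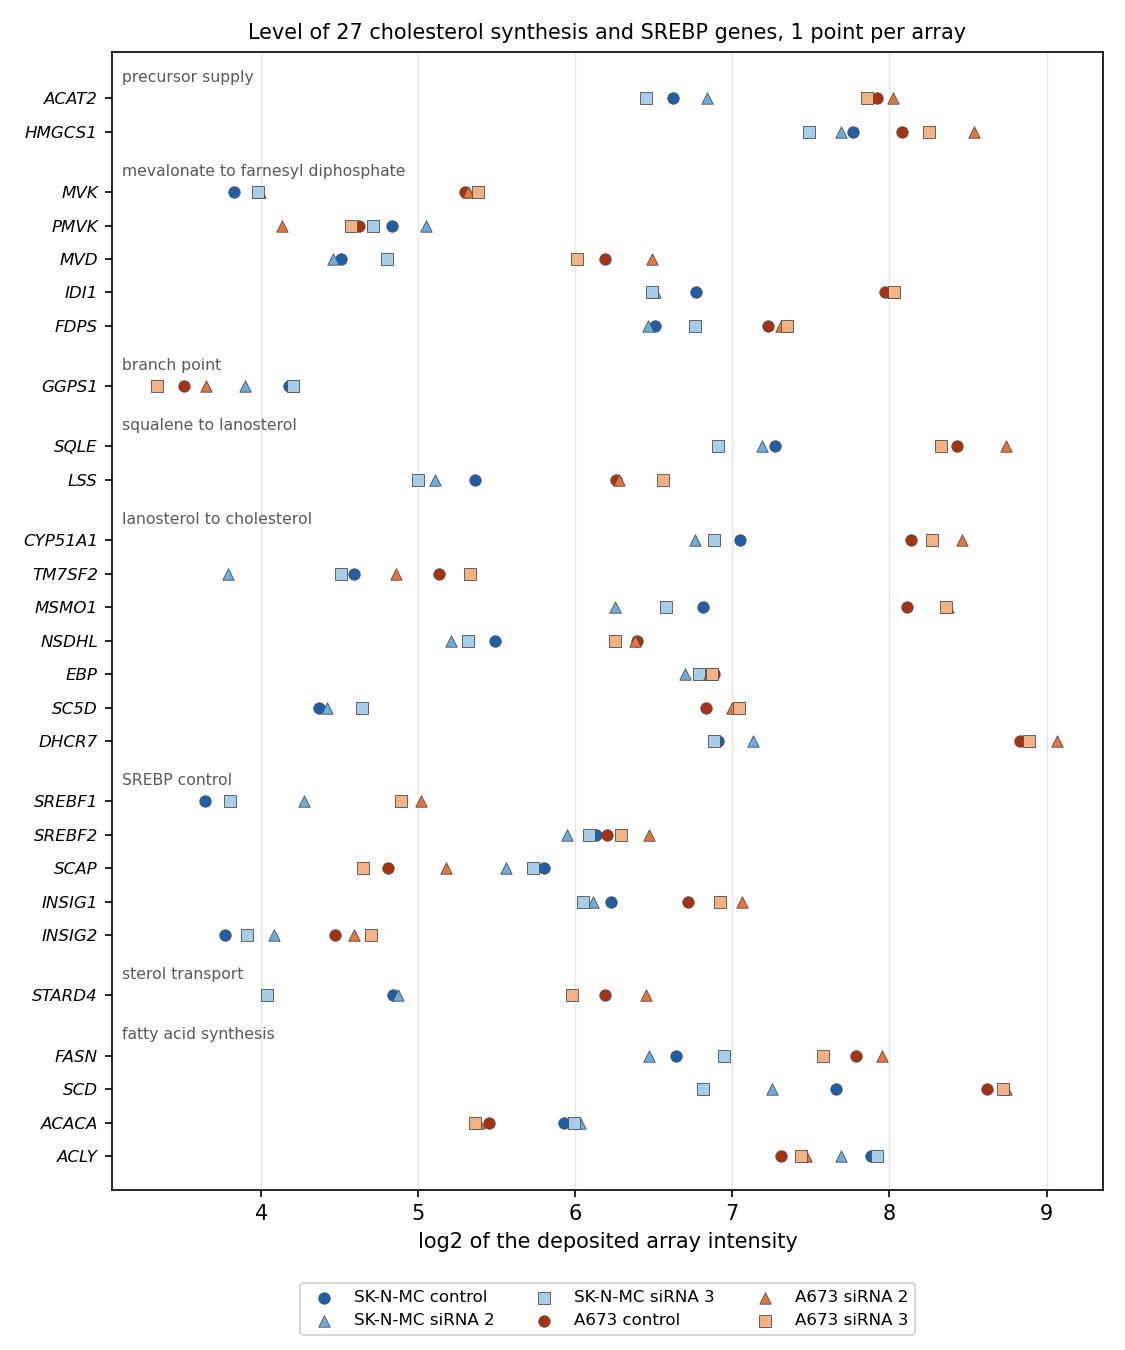
Level of each of the 27 members in each of the 6 arrays, as log2 of the deposited array intensity (horizontal axis), grouped by role. Blue points are SK-N-MC and red to orange points A673, with circles for the control arrays, triangles for siRNA 2 and squares for siRNA 3; the colours separate fully in every gene but EBP, and GGPS1, PMVK, SCAP, ACACA and ACLY have A673 on the left.

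With ACLY counted under fatty acid synthesis, both measured genes at the entry to the pathway were higher in A673. ACAT2, the cytosolic thiolase that joins acetyl-CoA units, was at 6.62, 6.84 and 6.45 in SK-N-MC against 7.92, 8.02 and 7.86 in A673, a difference of 1.30 (SE 0.13, 2.46-fold, adjusted p = 0.000208). HMGCS1, the synthase that makes HMG-CoA, was at 7.77, 7.69 and 7.49 in SK-N-MC against 8.08, 8.54 and 8.25 in A673, and its difference was smaller at 0.64 (SE 0.15, adjusted p = 0.0141). HMGCS1 lay closest in the control arrays, which differed by 0.30. Its call was lost without the SK-N-MC siRNA 3 array (0.53, adjusted p = 0.0505) and without the A673 siRNA 2 array (0.50, adjusted p = 0.0546).

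From mevalonate to farnesyl diphosphate 4 of 5 genes were higher in A673. MVK, which phosphorylates mevalonate, was at 3.83, 3.99 and 3.98 in SK-N-MC against 5.30, 5.32 and 5.38 in A673, a difference of 1.40 (SE 0.10, 2.64-fold, adjusted p = 3.44e-05). PMVK, the next kinase, did not follow: it was at 4.83, 5.05 and 4.71 in SK-N-MC against 4.62, 4.13 and 4.57 in A673, with a difference of -0.42 (SE 0.16, adjusted p = 0.0928), and its A673 arrays lay just below the SK-N-MC arrays. MVD, the decarboxylase that forms isopentenyl diphosphate, was at 4.51, 4.46 and 4.80 in SK-N-MC against 6.19, 6.49 and 6.01 in A673, a difference of 1.64 (SE 0.16, 3.11-fold, adjusted p = 0.000154). IDI1, the isomerase of that product, was at 6.77, 6.51 and 6.49 in SK-N-MC against 7.97, 8.02 and 8.03 in A673, a difference of 1.42 (SE 0.11, adjusted p = 5.97e-05). FDPS, which joins the units to farnesyl diphosphate, was at 6.51, 6.46 and 6.76 in SK-N-MC against 7.23, 7.31 and 7.35 in A673, a difference of 0.72 (SE 0.12, adjusted p = 0.00245). The kinase PMVK thus stood between MVK and MVD, both of them more than 2-fold higher in A673, without a call in either direction.

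At the branch point the geranylgeranyl diphosphate synthase GGPS1, which leads away from sterols to protein prenylation, was lower in A673. It was the dimmest member, at 4.18, 3.90 and 4.20 in SK-N-MC against 3.51, 3.65 and 3.34 in A673, and differed by -0.59 (SE 0.13, adjusted p = 0.0121). This call was lost without the A673 siRNA 3 array (-0.52, adjusted p = 0.0569) and in the siRNA arrays alone (-0.55, adjusted p = 0.0772), which is also the value without either control array.

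Both measured steps from squalene to lanosterol were higher in A673. SQLE, the squalene epoxidase and a rate-limiting step of the sterol branch, was at 7.27, 7.19 and 6.91 in SK-N-MC against 8.43, 8.74 and 8.33 in A673, a difference of 1.38 (SE 0.15, 2.6-fold, adjusted p = 0.000321). LSS, which closes the rings to lanosterol, was at 5.36, 5.11 and 5.00 in SK-N-MC against 6.26, 6.28 and 6.56 in A673, a difference of 1.21 (SE 0.14, adjusted p = 0.000415). The A673 arrays of both genes lay above all SK-N-MC arrays by a margin wider than the range within either line.

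From lanosterol to cholesterol 6 of 7 genes were higher in A673, and this group held the widest differences. CYP51A1, the lanosterol demethylase, was at 7.05, 6.76 and 6.88 in SK-N-MC against 8.14, 8.46 and 8.27 in A673, a difference of 1.39 (SE 0.13, adjusted p = 0.000156), and its other probe set gave a difference of means of 1.22. MSMO1, the oxidase that starts removal of the next methyl groups, was at 6.81, 6.25 and 6.58 in SK-N-MC against 8.11, 8.37 and 8.36 in A673, a difference of 1.74 (SE 0.16, 3.33-fold, adjusted p = 0.000136). NSDHL, a dehydrogenase of the same demethylation, was at 5.49, 5.21 and 5.32 in SK-N-MC against 6.39, 6.38 and 6.25 in A673, a difference of 1.00 (SE 0.11, adjusted p = 0.000286). SC5D, the desaturase that makes the precursor used by DHCR7, was at 4.37, 4.42 and 4.64 in SK-N-MC against 6.83, 7.00 and 7.04 in A673. Its difference, 2.48 (SE 0.11, 5.58-fold, adjusted p = 2.98e-06), was the largest of the members, and the A673 arrays lay more than 2 log2 units above the SK-N-MC arrays. DHCR7, the reductase of the last step to cholesterol, was at 6.91, 7.13 and 6.88 in SK-N-MC against 8.83, 9.07 and 8.89 in A673, a difference of 1.96 (SE 0.12, 3.88-fold, adjusted p = 1.38e-05).

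Of the other genes of this group, TM7SF2 was also higher but with a less stable call, and EBP departed from this picture. TM7SF2, a sterol reductase that has a second enzyme doing the same step, was at 4.59, 3.79 and 4.51 in SK-N-MC against 5.13, 4.86 and 5.33 in A673, a difference of 0.81 (SE 0.21, adjusted p = 0.0237) with the widest spread of the group. Its call was lost without the A673 siRNA 3 array (0.63, adjusted p = 0.0915) and in the siRNA arrays alone (0.94, adjusted p = 0.055), which is also the value without either control array. EBP, the sterol isomerase, was at 6.87, 6.70 and 6.79 in SK-N-MC against 6.88, 6.85 and 6.87 in A673. It differed by 0.084 (SE 0.10, 95% interval -0.15 to 0.32), and by -0.014 after a second quantile normalization, so a difference of the size seen in its neighbours in the pathway lies outside its interval.

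Among the genes of SREBP control the lines differed in both directions. SREBF1 was at 3.64, 4.27 and 3.80 in SK-N-MC against 4.89, 5.02 and 4.89 in A673, a difference of 1.03 (SE 0.15, 2.05-fold, adjusted p = 0.00141). SREBF2 was at 6.13, 5.95 and 6.09 in SK-N-MC against 6.20, 6.47 and 6.29 in A673, and did not pass the threshold at 0.27 (SE 0.12, adjusted p = 0.158), although all A673 arrays lay above all SK-N-MC arrays. Its 95% interval ran from -0.0071 to 0.54, below the median difference of the members. SCAP, the escort of both factors, was lower in A673, at 5.80, 5.56 and 5.73 in SK-N-MC against 4.81, 5.18 and 4.65 in A673, a difference of -0.82 (SE 0.16, 1.76-fold, adjusted p = 0.00548).

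Both INSIG genes, which hold SCAP back and of which INSIG1 is itself a known SREBP target, were higher in A673. INSIG1 was at 6.23, 6.11 and 6.05 in SK-N-MC against 6.72, 7.06 and 6.92 in A673, a difference of 0.77 (SE 0.12, adjusted p = 0.00234). INSIG2 was at 3.77, 4.08 and 3.91 in SK-N-MC against 4.47, 4.59 and 4.70 in A673, a difference of 0.67 (SE 0.11, adjusted p = 0.00245). The lines differed least in INSIG1 between the control arrays, at 0.49. STARD4, a carrier of sterol between membranes, was at 4.84, 4.87 and 4.04 in SK-N-MC against 6.19, 6.45 and 5.98 in A673, a difference of 1.63 (SE 0.23, 3.09-fold, adjusted p = 0.00115), and its lowest value was that of the SK-N-MC siRNA 3 array.

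Fatty acid synthesis split 2 against 2. FASN, the fatty acid synthase, was at 6.64, 6.47 and 6.95 in SK-N-MC against 7.79, 7.95 and 7.58 in A673, a difference of 1.09 (SE 0.16, adjusted p = 0.00143). SCD, the desaturase that makes monounsaturated fatty acids, was at 7.66, 7.25 and 6.81 in SK-N-MC against 8.62, 8.74 and 8.72 in A673, a difference of 1.45 (SE 0.18, 2.74-fold, adjusted p = 0.000621). The other members of this group were lower in A673. ACACA, the carboxylase that makes malonyl-CoA, was at 5.93, 6.03 and 5.99 in SK-N-MC against 5.45, 5.39 and 5.36 in A673, a difference of -0.59 (SE 0.10, adjusted p = 0.00358). ACLY, which makes cytosolic acetyl-CoA from citrate, was at 7.88, 7.69 and 7.92 in SK-N-MC against 7.31, 7.47 and 7.44 in A673, a difference of -0.42 (SE 0.12, adjusted p = 0.0291). The call of ACLY was lost in 6 of 13 alternatives: without the SK-N-MC siRNA 3 array (-0.38, adjusted p = 0.0946), the A673 siRNA 2 array (-0.46, adjusted p = 0.065), the A673 siRNA 3 array (-0.43, adjusted p = 0.0822) or either control array, and in the siRNA arrays alone (these last 3 at -0.35, adjusted p = 0.167).

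**Figure D2:**
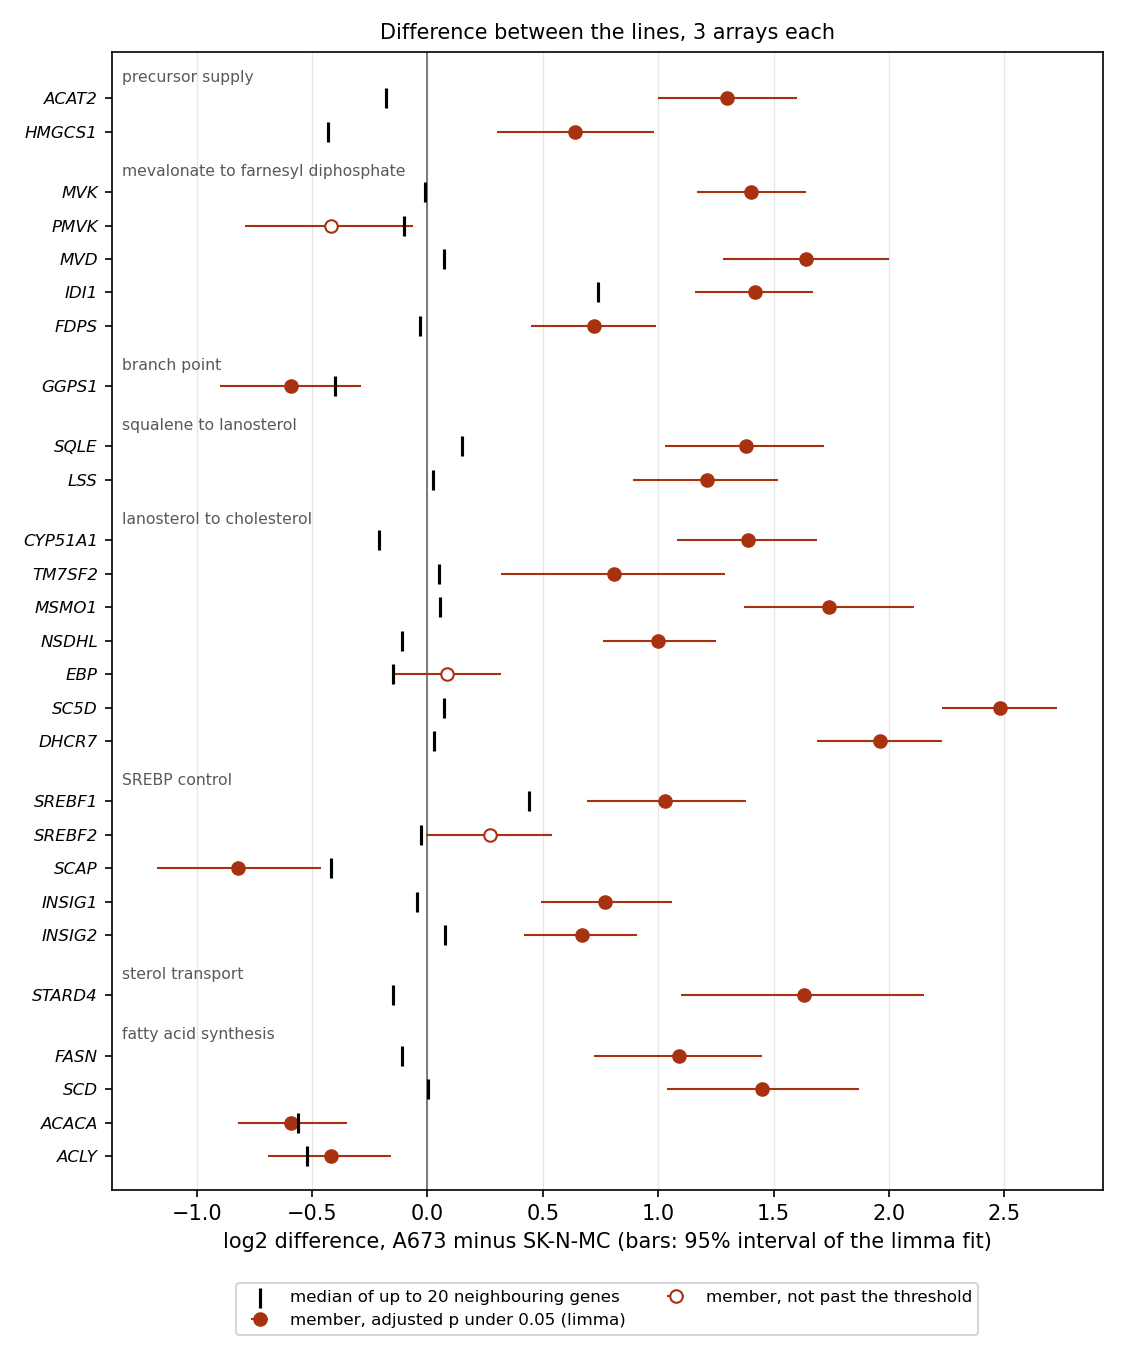
Difference between the lines for each member (horizontal axis, log2, A673 minus SK-N-MC, 3 arrays of each line), with the 95% interval of the limma fit as a bar, filled circles for members past the threshold and open circles for the other 3. Black ticks give the median difference of the genes next to each member on its chromosome; the ticks of ACACA and ACLY lie at -0.56 and -0.52, close to the members' own values, and that of SC5D at 0.072.

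The members lie on 16 chromosomes, and each was set beside the 10 nearest measured genes on either side, other members left out. All 20 higher members exceeded the median of their neighbours, by 0.59 to 2.41, with a median excess of 1.21. These 20 were picked for being called higher and the neighbours were not picked, so such an excess follows largely from that choice. The neighbours of IDI1 were themselves high in A673, with a median of 0.74 and 11 of 18 called higher, and those of SREBF1 had a median of 0.44 with 11 of 20 called higher. In all, 20.7% of the 396 neighbour entries of the higher members were called higher, beside 13.5% of all genes. The 4 lower members lay among lower neighbours: 39 of their 80 neighbour entries (48.8%) were called lower, beside 11.4% of all genes. The neighbours' median was -0.56 for ACACA and -0.52 for ACLY, both on chromosome 17, -0.40 for GGPS1 and -0.42 for SCAP. ACACA differed from its neighbours' median by -0.026, ACLY by 0.10, GGPS1 by -0.19 and SCAP by -0.40. The part of these chromosome regions in the members' differences was not tested.

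Related genes outside the list were counted in the same fit, in lists drawn up with earlier results of these data known. Of 15 measured genes of fatty acid synthesis, elongation and desaturation, 8 were higher in A673 and 1 was lower, together 60% beside 24.8% of all genes, and the list median was 0.68. ELOVL6, which elongates saturated fatty acids and is a known SREBP1 target, was at 2.70, 3.11 and 2.82 in SK-N-MC against 6.21, 6.16 and 6.34 in A673 (difference 3.36, SE 0.13, 10.3-fold, adjusted p = 1.51e-06). FADS2 and FADS1, the desaturases of polyunsaturated fatty acids, were 7.73-fold and 4.51-fold higher (adjusted p = 2.37e-06 and 4.11e-05). ACACB, a mitochondrial relative of ACACA, was lower but dim, at 2.05 to 3.26 (difference -0.61, SE 0.13), and its call was lost in the siRNA arrays alone and so also without either control array (-0.52, adjusted p = 0.0745).

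The other lists lay nearer the background. Of 22 genes of sterol uptake, storage, transport and efflux 3 were called (13.6%), with a list median of 0.18. STARD3, a sterol carrier of late endosomes, was lower in A673 (-1.04, SE 0.11), while SOAT1, which esterifies cholesterol, was higher (0.65, SE 0.14). NPC2, a sterol carrier of the lysosome, was also called higher (0.42, SE 0.12), a call lost with each siRNA array left out in turn and after a second quantile normalization (adjusted p 0.0582 to 0.126). Of 12 genes of SREBP processing and sterol sensing 2 were called (16.7%): the protease MBTPS1, which makes the first cut in SREBP (0.65, SE 0.17), and ERLIN1 (0.61, SE 0.15). MBTPS1 lost its call without SK-N-MC siRNA 3, A673 siRNA 2 or either control array (0.49 to 0.67, adjusted p 0.0828 to 0.0946), and ERLIN1 without SK-N-MC siRNA 3 or A673 siRNA 2 (0.47 and 0.50, adjusted p = 0.0549 and 0.0741). Of 13 genes of the isoprenoid branches, RCE1 was higher (0.54, SE 0.13) and NUS1 (-0.56, SE 0.10) and COQ2 (-0.45, SE 0.11) were lower, together 23.1%. COQ2 lost its call without either control array or either array with siRNA 2 and without A673 siRNA 3 (adjusted p 0.0528 to 0.103), and RCE1 without SK-N-MC siRNA 3 or either A673 siRNA array (adjusted p 0.0569 to 0.0721).

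**Figure D3:**
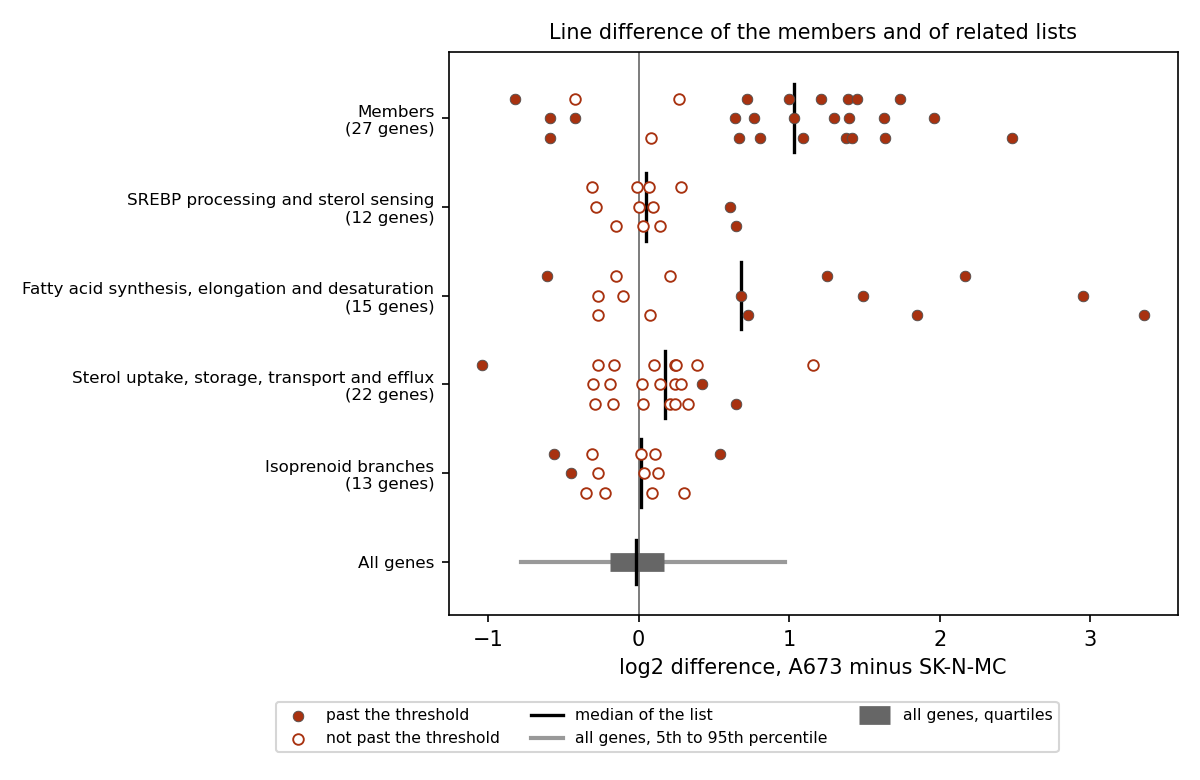
Difference between the lines (horizontal axis, log2, A673 minus SK-N-MC) for the members and the 4 related lists, 1 circle per gene, filled where the adjusted p is under 0.05, with the list median as a black line. The grey bars give the quartiles and the 5th to 95th percentiles of all 18417 genes, from -0.78 to 0.97; this is the spread of single genes, with a median of -0.017. The members' median is 1.03, and the lists of sterol handling, SREBP processing and isoprenoid branches have medians of 0.18, 0.048 and 0.017.

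The next comparison asks whether the members changed when STEAP1 was silenced. Across both lines limma called 0 of the 27 members, and 0 of 18417 genes, which is a background of 0%, with 0 members and 4.63% of all genes at an unadjusted p under 0.05. The members' differences ran from -0.26 for SCD to 0.23 for SREBF1, with a median of 0.0046 beside -0.005 over all genes, and 14 were above 0 and 13 below. Each member's 95% interval included 0, the lowest bound being -0.75 for TM7SF2 and the highest 0.60 for SREBF1. No member had 1 sign in all 4 siRNA arrays together with a mean of at least 0.3, a pattern that 4.85% of all genes showed. The smallest adjusted p of a member was 0.989. In the same fit STEAP1 itself, below its control in each of the 4 siRNA arrays, differed by -2.18 (SE 0.24, limma unadjusted p = 1.59e-05, adjusted p = 0.293). A change of that size thus also went uncalled after the adjustment over all genes.

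Within each line most of the members' differences from the control array were under 1.5-fold, and their medians were below 0 in SK-N-MC and above 0 in A673. By member, 5 had 1 sign in all 4 siRNA arrays (18.5%, beside 21.8% of all genes): MVK, SC5D and INSIG2 were above control, NSDHL and EBP below. In SK-N-MC 18 members lay below the control with siRNA 2 and 17 with siRNA 3, where 50.7% and 50.1% of all genes did, and the medians were -0.12 and -0.081. In A673 5 lay below the control with siRNA 2 and 12 with siRNA 3, where 51.4% and 49.2% of all genes did, and the medians were 0.14 and 0.058. Most of all genes are dimmer than the members, and no share over brighter genes was taken for any silencing comparison. By upper quartile of log2 over all genes, both SK-N-MC siRNA arrays lay below their control (5.065, 4.949 and 5.036). Both A673 siRNA arrays lay above theirs (5.088, 5.125 and 5.091). The part of brightness in the members' opposite medians was not tested. Both siRNA arrays of a line are set against the same control array, so they are not independent, and with that 1 control array a missing call says little about changes of the size seen. limma called 0 members in either line (at an unadjusted p under 0.05, 1 in SK-N-MC beside 5.12% of all genes, and 0 in A673 beside 3.35%), where its calls over all genes were 1 for SK-N-MC (0.00543%) and 0 for A673 (0%). The members' fitted medians were -0.13 for SK-N-MC against 0.10 for A673. A second quantile normalization made the SK-N-MC median smaller in size, as given in the last section.

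The widest single differences, named here after their values were seen, were in SK-N-MC. SCD, at 7.66 in the control array, was at 7.25 with siRNA 2 and 6.81 with siRNA 3, a difference of -0.63 (SE 0.22, adjusted p = 0.921). TM7SF2 stood at -0.80 from its control with siRNA 2 but -0.08 with siRNA 3, and STARD4 at 0.03 with siRNA 2 but -0.80 with siRNA 3. MSMO1 stood at -0.56 and -0.24, and SREBF1 at 0.63 and 0.16. At least 1.5-fold from the control with siRNA 2 were 1 member lower, beside 3.81% of all genes, and 1 higher, beside 2.23%. With siRNA 3 these were 2 lower, beside 2.54%, and 0 higher, beside 1.23%. In A673 no member reached 1.5-fold, where 1.43% of all genes were that much lower and 1.12% higher with siRNA 2, and 1.54% lower and 1.02% higher with siRNA 3. The widest there were PMVK at -0.49 and HMGCS1 at 0.47, both with siRNA 2. For HMGCS1 the fit over both siRNA arrays of A673 gave 0.32 (SE 0.20, adjusted p = 1.00).

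**Figure D4:**
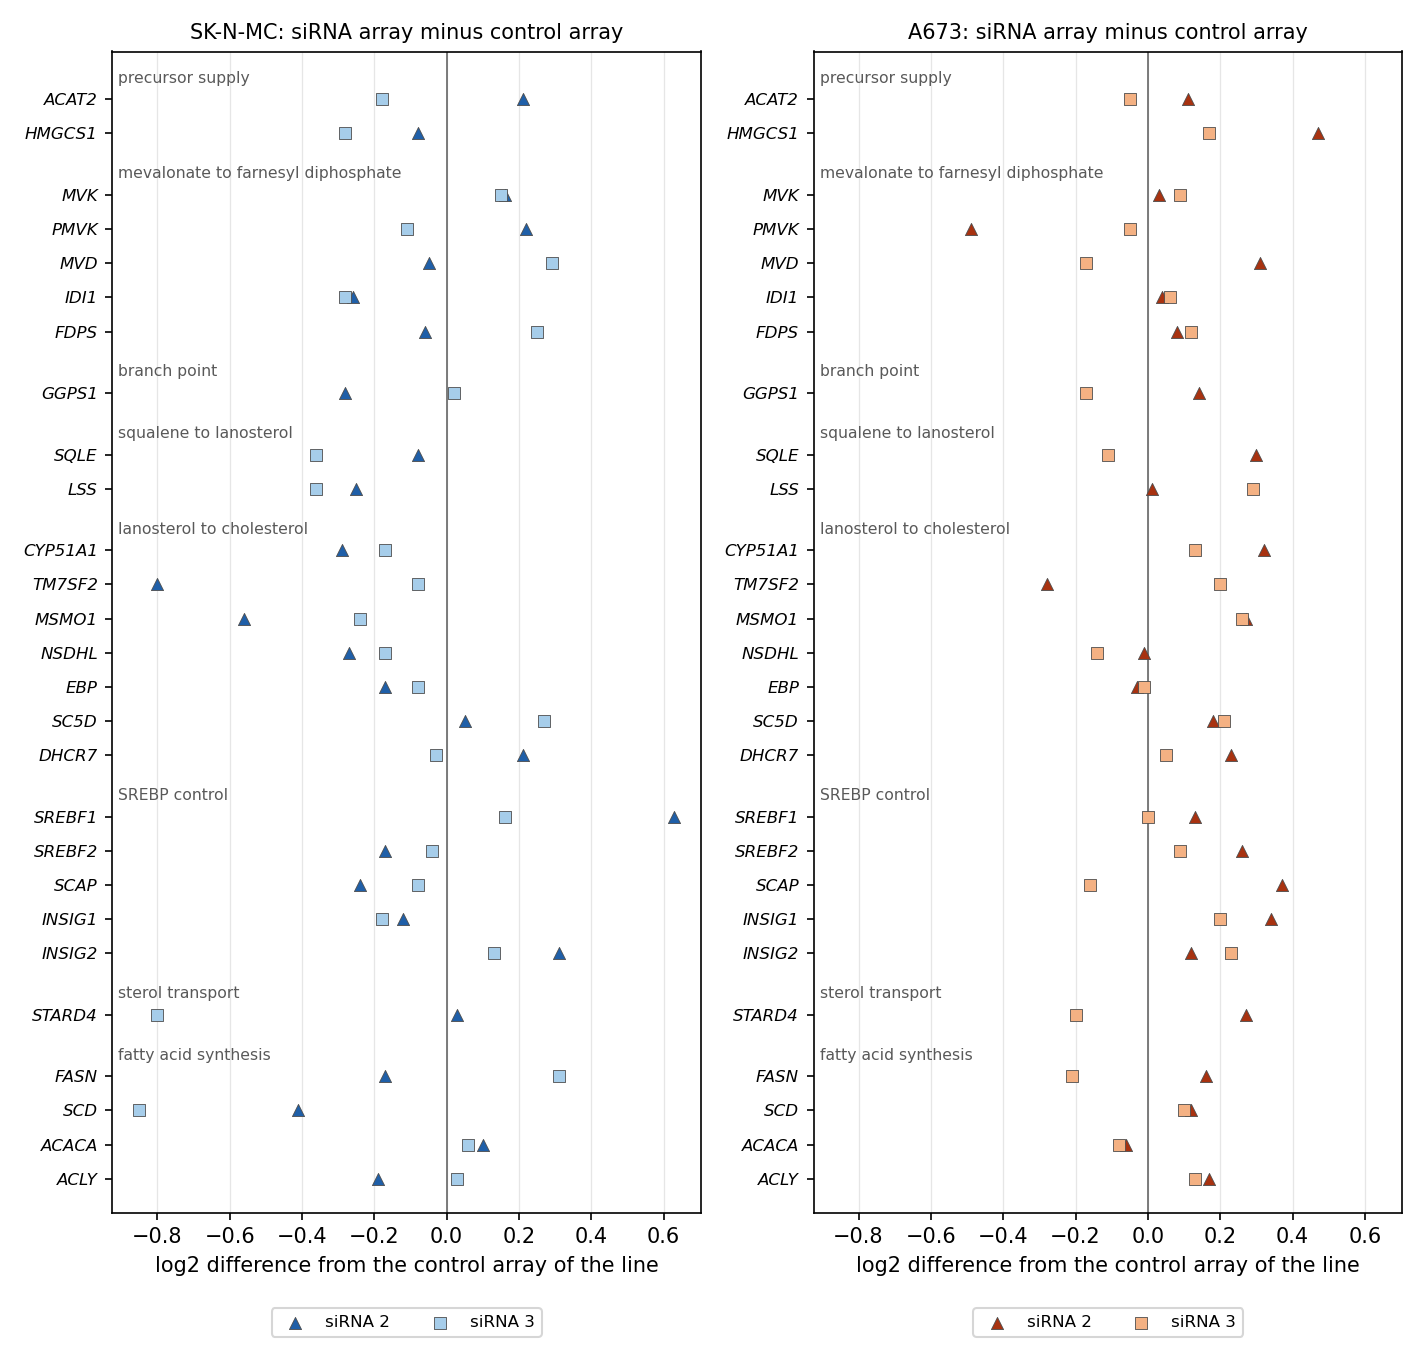
Difference of each siRNA array from the control array of its line (horizontal axis, log2) for the 27 members, SK-N-MC in the left panel and A673 in the right, with triangles for siRNA 2 and squares for siRNA 3. Most SK-N-MC points lie left of 0 and most A673 points right of it; in SK-N-MC the lowest point is SCD at -0.85 and the highest SREBF1 at 0.63, and no member passed the threshold in either line.

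The difference between the lines' responses was also fitted. With 1 control array in each line this fit has too few arrays for a count of 0 to speak for or against a difference. limma called 0 members and 0 genes (0%), with 2 members, MSMO1 and SCD, and 3.86% of all genes at an unadjusted p under 0.05. Above control in both A673 siRNA arrays and below it in both SK-N-MC ones were 8 members, beside 9.88% of all genes, and 1 member, ACACA, showed the reverse, beside 10.1%. Most of all genes are dimmer than the members, and no share over brighter genes was taken.

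The siRNAs were also compared with each other, which uses no control array. With siRNA 2 minus siRNA 3 over both lines, STARD4 differed by 0.65 (SE 0.17, adjusted p = 0.586), TM7SF2 by -0.60 (SE 0.16, adjusted p = 0.586) and SQLE by 0.35 (SE 0.15, adjusted p = 0.745). These 3 members had an unadjusted p under 0.05, as did 6.67% of all genes, and limma called 0 genes (0%). The members' median was 0.02 beside -0.0061 over all genes.

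None of the 4 related lists had a call under silencing, and their medians across lines lay between -0.026 and 0.025. The widest difference across lines in each list was LIPA in sterol handling, MBTPS2 in SREBP processing (0.36, SE 0.13), ACACB in fatty acid synthesis (-0.44, SE 0.14) and COQ2 in the isoprenoid branches (-0.21, SE 0.12), each with an adjusted p of 0.989. LIPA encodes the lysosomal acid lipase, which frees cholesterol from the esters of endocytosed lipoproteins. It was at 5.09, 2.29 and 4.37 in SK-N-MC against 5.58, 4.34 and 5.32 in A673, so the siRNA 2 array was the lowest of each line. Across lines it differed by -1.26 (SE 0.53), and by -1.76 to -0.74 with 1 array left out. Set against siRNA 3, siRNA 2 gave a LIPA difference of -1.53 (SE 0.32, adjusted p = 0.572), a comparison added after its values were seen.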

How the data were processed

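RNA from 6 samples of 2 Ewing tumor lines was measured on Affymetrix gene arrays from 200 ng of RNA per array. The authors deposited linear intensities; the submitters' processing notes name RMA and Expression Console 1.1, without saying how values left the log scale. RMA normalizes between arrays, which can hide a shift common to all genes. Without detection calls, dim genes could not be separated from background. Of 33297 probe sets 19460 carry 1 symbol, 1754 several and 12083 have no name here. RefSeq (GRCh38.p14) gave the current symbol of 19429 probe sets by gene identifier, and the brightest probe set of a gene was kept.

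log2 intensities were fitted with limma 3.58.1 in R 4.3.3 (lmFit, eBayes, two-sided). The line difference and silencing across lines came from a model with terms for line and silencing. Its residual spread thus includes any difference between the lines' responses. Responses within lines and their difference came from 4 group means, and the siRNA difference from a cell line term and a term per siRNA. The fits were tested on simulated data with known changes. Most planted 2-fold changes were missed by the fits within lines, of the difference of responses and of the siRNA difference. The fit of the difference of responses also missed the planted 4-fold changes.

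The members and lists were chosen with earlier results of these data known. Members are named in all comparisons, each related list by its 3 largest line calls in each direction and its widest silencing difference. Alternatives were a second quantile normalization, median centring, the mean of all probe sets, a limit on dim genes, an intensity trend, the siRNA number as a replicate block, the siRNA arrays alone and each array left out.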

Additional observations from a re-analysis of the deposited data

Results flagged for a closer look

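In 8 of the 27 members (29.6%) both A673 siRNA arrays lay above their control and both SK-N-MC siRNA arrays below theirs, a pattern that 9.88% of all genes showed, and in 1 member the signs were the other way round, as in 10.1% of all genes. The signs within a line share a control array. These 9 members were picked by those signs, so the direction of each difference given next was fixed by that choice. The response in A673 exceeded the SK-N-MC response by 0.74 (SE 0.31) for SCD, 0.66 (SE 0.27) for MSMO1, 0.50 (SE 0.28) for HMGCS1, 0.46 (SE 0.27) for LSS, 0.46 (SE 0.25) for CYP51A1, 0.42 (SE 0.24) for INSIG1, 0.32 (SE 0.23) for IDI1 and 0.28 (SE 0.25) for SREBF2. For ACACA, the member with the signs reversed, it was -0.15 (SE 0.23). The limma fit of this difference called 0 members and 0 genes, with adjusted p = 1.00 for each of these 9 members, but with 1 control array in each line it has too few arrays for that count to speak for or against a difference. Of the members 2, SCD and MSMO1, had an unadjusted p under 0.05, beside 3.86% of all genes. The median over all members was 0.14 beside 0.0067 over all genes. These shares are over all genes, most of them dimmer than the members, and no share over brighter genes was taken. The upper quartile of log2 over all genes was 5.065, 4.949 and 5.036 in SK-N-MC (control, siRNA 2, siRNA 3). In A673 it was 5.088, 5.125 and 5.091. The part of brightness and of the single control arrays in this pattern was not tested.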

How the results depend on the processing

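Of the 24 members called between the lines, 20 kept their call and direction in each of the 13 alternatives; HMGCS1, GGPS1, TM7SF2 and ACLY lost theirs in some, with the direction kept. The members' median line difference was 0.96 to 1.08 with 1 array left out. The siRNA number as a replicate block gave 20 members higher and 4 lower, and 2548 genes higher and 2172 lower; it called 0 members and 0 genes under silencing, and changed no member's call. The number marks the siRNA and not a shared culture. The difference of siRNA 2 and siRNA 3 correlated between the lines at 0.0663 across 18417 genes. The siRNA arrays alone called 2 members lower and 1330 genes lower, and the limit of 4 on dim genes called 1355 genes lower, with fewer genes tested. Leaving out a control array gives the same line values as the siRNA arrays alone, since the lone control is then fitted exactly. With 1 array left out, 1330 to 2120 genes and 2 to 4 members were lower, the 2 without either control or without A673 siRNA 3. EBP was reversed at -0.014 after a second quantile normalization.

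Under silencing across lines, 1 array left out gave a members' median of -0.13 to 0.10, 0 to 1 genes lower, and SCD at -0.63 to 0.11; the median of -0.13 and the 1 gene came without the A673 control, and SCD at 0.11 without the SK-N-MC control. In SK-N-MC the members' median was -0.048 after a second quantile normalization and -0.13 to -0.081 with 1 array left out; 5 genes were lower with an intensity trend, and 0 to 60 lower and 0 to 1 higher with 1 array left out, the 60 and the 1 without SK-N-MC siRNA 3. STARD4 there ran from -0.80 to 0.031. For the difference of responses 0 to 26 genes were positive, the 26 without SK-N-MC siRNA 3, and for the siRNA difference the members' median was -0.06 to 0.14, the upper value without SK-N-MC siRNA 2. No paired analysis was possible within lines, for the difference of responses or for the siRNA difference, because the number is the siRNA itself. Members were called in none of these fits of silencing or siRNAs. With 1 control array a line, silencing within a line has no spread of its own control, and no signal-over-background calls were used.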
